A study of Mus musculus with 8 samples.

Results

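The first 2 days of PU.1 restoration were examined in AML410, a mouse acute myeloid leukaemia, by setting 2 libraries from mice given doxycycline (Dox) for 2 days beside 2 libraries from untreated mice. The libraries were chosen by sample title and are 4 of the 8 in the series, which also holds 2 libraries each at days 4 and 6. All libraries come from the same p53-/- shPU.1 leukaemia with a monosomal karyotype, grown in bone marrow of C57BL/6 recipients, so untreated cells carry the p53 loss and the hairpin too. In this model Dox turns off a hairpin against PU.1 that is linked to green fluorescent protein (GFP). Day 2 cells were sorted as GFPhigh-mid and untreated cells as GFPhigh, so 2 days of Dox and the wider GFP gate cannot be told apart. The labels name neither the promoter that drives the hairpin nor the age of the mice. Titles call the libraries of a group technical replicates, while the design text has each from its own mouse. Nothing settles which holds, so every p-value given here reflects the scatter among these libraries alone, and that scatter may be technical.

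PU.1 is the ETS family transcription factor encoded by Spi1. It binds purine-rich DNA with a GGAA core and directs blood progenitors towards monocytes, macrophages, granulocytes and B cells, with many of its best-known targets coding for cytokine receptors, Fc receptors, integrins and granule proteins. Low PU.1 holds myeloid progenitors in an immature state and can lead to leukaemia in mice, and in that setting its return is known for setting off differentiation.

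The 4 libraries held 9262047 and 9986780 counts at day 2 and 10253525 and 10110580 counts in untreated cells. They carried the blast markers Elane, Prtn3 and Ctsg, all granule proteases of early myeloid cells, together with Kit and Myb. Elane, neutrophil elastase, had 10512 and 10136 CPM (counts relative to library size, scaled by TMM, a normalisation that assumes most genes do not change) at day 2, against 8562 and 7471 CPM in untreated cells. Cd34, the other surface marker of blasts on the list, was close to 1 CPM, with 0.923 and 1.44 CPM at day 2 and 0.596 and 0.922 CPM in untreated cells. Of 9 markers of T and NK cells, 7 (Cd3e, Cd3d, Cd3g, Cd4, Cd8a, Ncr1 and Trac) are not among the deposited genes. Nkg7, the only member tested, had 185 and 215 CPM in the day 2 libraries, against 130 and 111 CPM in untreated cells. EdgeR called it up, by 0.73 on the log2 scale, or 0.62 to 0.85 with 1 library left out. Of 4 stroma and endothelium markers tested, Pecam1 was called up (0.57, or 0.36 without day 2 replicate 2). In 3 of these 4 both day 2 libraries lay below both untreated libraries, against 23.2% of all genes. The 4 markers summed to 148 and 193 CPM at day 2, against 125 and 111 CPM in untreated cells. Xist, the RNA of the inactive X chromosome, had 29.9 and 43.3 CPM at day 2 and 25.5 and 92.7 CPM in untreated cells, with untreated replicate 2 the highest. RNA of markers of other cell types differed between libraries as well. Whether it came from residual cells, and what part it had in the results, was not tested.

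Day 2 replicate 1 stood apart from the other 7 libraries in its RNA. In it 13.3% of counts fell on a single gene that has no symbol in the tables used, against 0.0883 to 0.149% elsewhere. RNAs that carry no poly(A) tail were high in the same library. Rn7sk, a small nuclear RNA that restrains transcription elongation, had 223 and 3.32 CPM at day 2, against 4.00 and 2.18 CPM in untreated cells. Rmrp, the RNA of an RNase that works in mitochondria and the nucleolus, had 70.6 and 1.53 CPM at day 2, against 1.45 and 0.755 CPM in untreated cells. Rpph1, the RNA of RNase P, had 82.8 and 1.08 CPM at day 2, against 0.511 and 1.59 CPM in untreated cells. In all 3 of these RNAs only day 2 replicate 1 was high, while day 2 replicate 2 lay within or beside the untreated range. They passed the test (edgeR adjusted p = 0.0425 for Rn7sk, 0.0429 for Rmrp and 0.0466 for Rpph1), yet without this library their log2 fold changes were 0.11, 0.47 and 0.03. Leaving out any other library except day 2 replicate 2 ended these calls too. The ribosomal RNA mt-Rnr1 of mitochondria had 1164 and 132 CPM at day 2, against 158 and 152 CPM in untreated cells, and did not pass (edgeR adjusted p = 0.0887). Lars2, the mitochondrial leucyl-tRNA synthetase gene, had 15797 and 1922 CPM at day 2, against 1865 and 1373 CPM in untreated cells, and its log2 fold change of 2.45 (edgeR adjusted p = 0.0485) was 0.25 without day 2 replicate 1. It was between 2.25 and 2.69, and not called, when either untreated library or any 1 of the day 4 and day 6 libraries was left out.

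**Figure D1:**
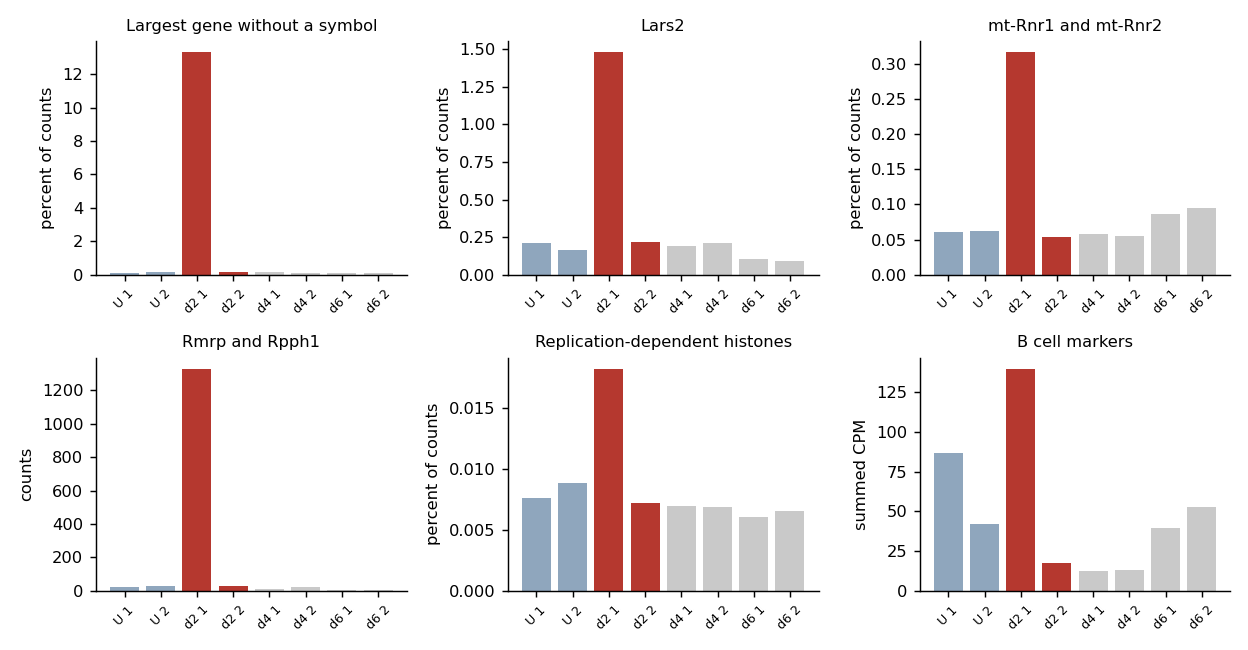
Makeup of the 8 libraries, with days in time order from untreated (U) to day 6 and day 2 in red. Bars give the percent of all counts (or the counts, or the summed CPM) of each gene or list per library. Day 2 replicate 1 is the highest in all 6 panels, with 13.3% of counts in a single gene and 140 CPM of B cell markers.

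The excess was uneven across RNA classes. Replication-dependent histone genes, whose main mRNAs lack a poly(A) tail, took 0.0182% of the counts of day 2 replicate 1, against 0.00604 to 0.00888% in the other 7 libraries. Small nucleolar RNAs, which also lack a tail, summed to 15.1 CPM of total counts in this library and 9.83 to 30.3 in the others, so they were not raised. Of 17 histone genes tested none was called by edgeR, DESeq2 or limma, with 9 at an unadjusted edgeR p under 0.05. Their median log2 fold change was 1.19, or 0.06 without day 2 replicate 1, and 9 of them were called up without day 2 replicate 2. The transcripts of mitochondrially encoded proteins took 1.70% of the counts of day 2 replicate 1, and 1.68 to 2.29% of the others.

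B lineage RNA also separated the day 2 libraries. The 10 B cell markers summed to 140 and 17.4 CPM at day 2, against 86.4 and 41.8 CPM in untreated cells. Igkc, the constant region of the kappa light chain, had 40.6 and 1.88 CPM at day 2, against 15.6 and 7.13 CPM in untreated cells. Pou2af1, a coactivator of antibody genes, had 30.7 and 1.795 CPM at day 2, against 17.5 and 8.13 CPM in untreated cells. In both genes day 2 replicate 1 was the highest of the 4 libraries and day 2 replicate 2 the lowest. None of the 10 markers was called with all libraries by edgeR, DESeq2 or limma, and none had an unadjusted edgeR p under 0.05. By edgeR, 6 were called down without day 2 replicate 1 and 3 were called up without day 2 replicate 2. Spib, a PU.1-related ETS factor of B cells, was also highest in day 2 replicate 1. It had 23.1 and 1.88 CPM at day 2, against 5.70 and 1.84 CPM in untreated cells (edgeR adjusted p = 0.257). Its level in day 2 replicate 2 was close to that in untreated replicate 2. Other genes went the other way between the same libraries. Trem2, a receptor of macrophages, had 8.42 and 22.3 CPM at day 2, against 7.24 and 5.79 CPM in untreated cells, and Emilin2, a protein of the extracellular matrix, 11.99 and 29.9 CPM at day 2, against 19.8 and 20.6 CPM in untreated cells. Of 9156 named genes with an average log2 CPM of at least 3, 30 were more than 2-fold higher in day 2 replicate 1 and 13 more than 2-fold higher in day 2 replicate 2.

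Spi1 itself (gene 20375, chr2:91082374-91115759, mm10) had 128 and 174 counts at day 2 and 98 and 154 counts in untreated cells. That is 14.8 and 15.6 CPM at day 2, against 8.34 and 12.9 CPM in untreated cells. Both day 2 libraries lay above both untreated libraries, which lay further apart than the day 2 pair. The log2 fold change of 0.52 (SE 0.17) did not pass (edgeR quasi-likelihood test, adjusted p = 0.103). It was 0.24 without untreated replicate 1 and 0.87 without untreated replicate 2, where it passed (edgeR adjusted p = 0.0158). DESeq2 gave 0.52 with an adjusted p of 0.0453, and the other alternatives gave adjusted p between 0.0777 and 1. Spi1 reached a mean of 98.4 CPM at day 4 and 223 CPM at day 6, so the day 2 libraries stand at the foot of its rise. No member of the ETS factor list passed by edgeR (0 of 17 tested, 2 at an unadjusted p under 0.05, median log2 fold change 0.02), while DESeq2 called 1, Spi1. Trp53, the p53 gene that the model lacks, still had reads, with 61.2 and 64.8 CPM at day 2 and 65.0 and 62.7 CPM in untreated cells. A count summed over the gene cannot tell a deleted allele from an intact one.

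Across the 12330 genes tested, 756 passed at day 2 (6.13%), of which 516 rose (4.18%) and 240 fell (1.95%) by the edgeR quasi-likelihood test with Benjamini-Hochberg adjustment over all genes at 0.05. Most changes were small. Among rising genes 299 changed by less than 1.5-fold and 64 by more than 2-fold, and among falling genes 138 and 39. The median log2 fold change of all genes was 0.00. Both day 2 libraries stood above both untreated libraries in 3138 genes (25.5%) and below both in 2859 genes (23.2%), so a lack of overlap alone says little here. Without day 2 replicate 1, 400 genes rose and 134 fell. Other libraries moved the calls too. With untreated replicate 1 left out 1325 genes passed, and 325 passed with untreated replicate 2 left out. The count was 397 when day 2 replicate 2 was dropped, and 402 and 405 when day 6 replicate 1 or 2 was dropped. Under scaling by total counts, where the counts taken by a single gene lower all others in day 2 replicate 1, the median of all genes was -0.17 and the split 170 up and 658 down. That scaling kept 154 of the 516 rising calls and all 240 falling calls. Only 177 rising genes (1.44%) and 32 falling genes (0.26%) were called in the full fit and in each of the 8 fits that left out 1 library. Genes named below as rising or falling belong to these unless the text says otherwise.

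**Figure D2:**
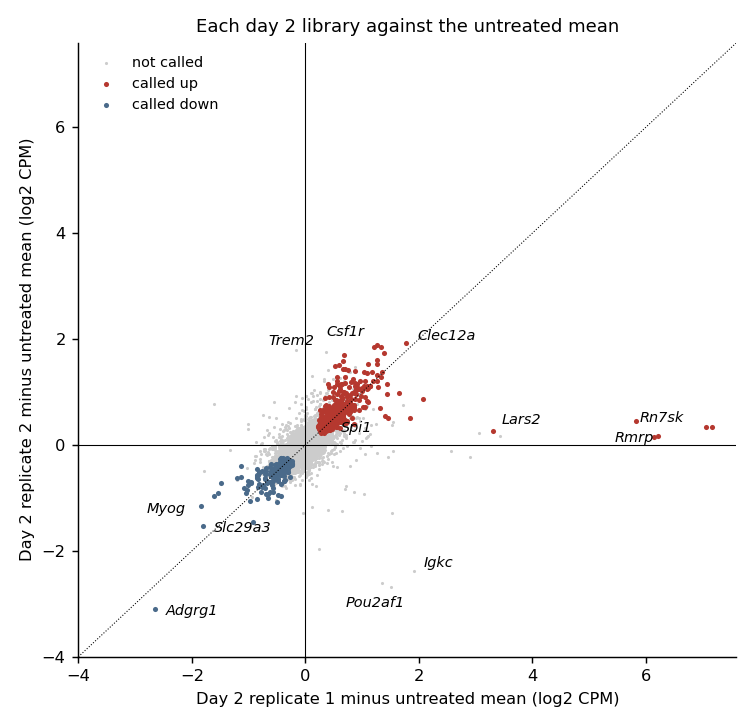
Each gene of average log2 CPM of at least 3, with its log2 CPM in day 2 replicate 1 (horizontal) and day 2 replicate 2 (vertical), both minus the untreated mean. Points near the dotted diagonal, such as Clec12a and Adgrg1, moved alike in both libraries. Rn7sk, Rmrp and Lars2 moved in replicate 1 alone, and Igkc and Pou2af1 moved in opposite directions.

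Several of the leading rising genes code for receptors of the myeloid cell surface. Clec12a (gene 232413, chr6:129349783-129365303), an inhibitory C-type lectin of myeloid cells, had 80.4 and 88.9 CPM at day 2, against 26.8 and 20.2 CPM in untreated cells. Csf1r (gene 12978), the receptor for macrophage colony-stimulating factor, had 89.4 and 128 CPM at day 2, against 39.7 and 31.8 CPM in untreated cells. Gpr65 (gene 14744, chr12:98268635-98276722), a proton-sensing receptor, had 6.57 and 10.3 CPM at day 2, against 2.55 and 2.93 CPM in untreated cells. In each of the 3 the lowest day 2 library was more than 2-fold above the highest untreated library. Their log2 fold changes were 1.85 (SE 0.12, edgeR adjusted p = 2.5e-05), 1.61 (SE 0.16, edgeR adjusted p = 0.000305) and 1.64 (SE 0.23, edgeR adjusted p = 0.00252). The scaffold protein gene Apba1 had 23.4 and 29.98 CPM at day 2, against 8.26 and 9.48 CPM in untreated cells (log2 fold change 1.598). Mlkl, the executor of necroptosis, had 27.2 and 36.7 CPM at day 2, against 12.7 and 12.4 CPM in untreated cells (1.36). Prss57, a serine protease of granules, had 16.6 and 16.9 CPM at day 2, against 7.92 and 5.11 CPM in untreated cells (1.36). Cd74, the invariant chain of MHC class II, had 20.0 and 8.62 CPM at day 2, against 5.62 and 3.77 CPM in untreated cells, so the day 2 libraries differed from each other by more than replicate 2 differed from untreated replicate 1. Its log2 fold change of 1.56 was 1.29, and not called, without untreated replicate 2, and 0.88 without day 2 replicate 1.

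**Figure D3:**
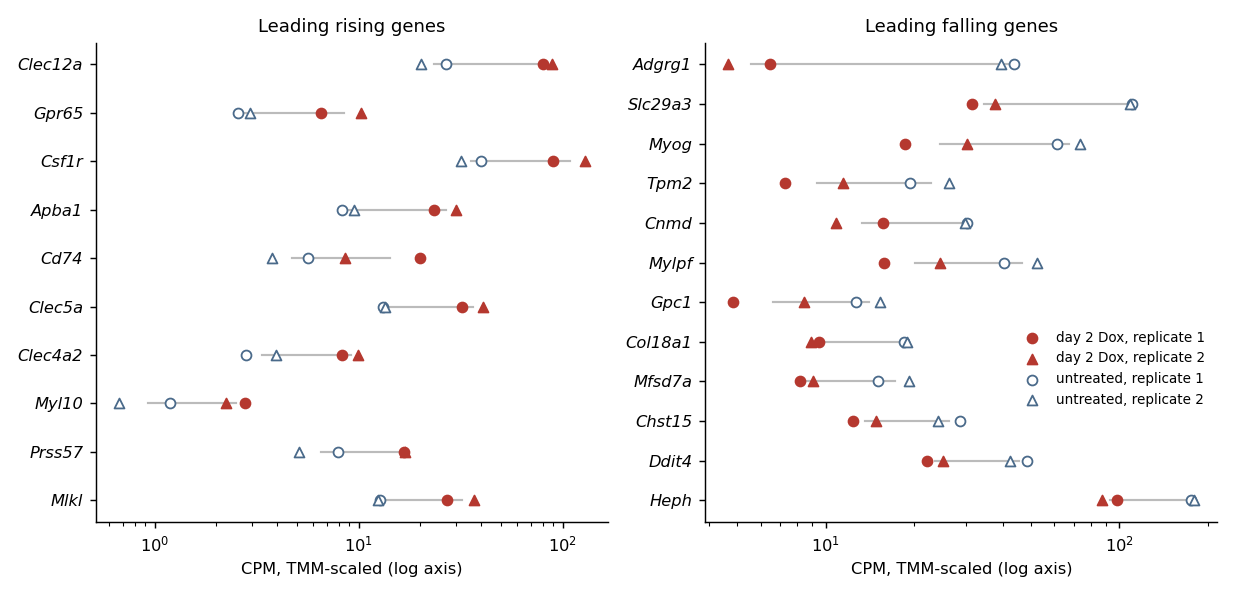
TMM-scaled CPM of the leading rising (left) and falling (right) genes on a log axis, with filled symbols for the 2 day 2 libraries, open symbols for the 2 untreated libraries and a grey line between the group means. Rmrp and Lars2 are left out because they rose in day 2 replicate 1 alone. Genes were picked only if both day 2 libraries lay beyond both untreated libraries, so the separation in each row was set by that choice.

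Rising genes of small p included several with close agreement between libraries. Tmed5, a cargo receptor of the early secretory pathway, had 112 and 110 CPM at day 2, against 46.3 and 42.9 CPM in untreated cells (log2 fold change 1.31, SE 0.07, edgeR adjusted p = 1.38e-05). Sla, an adaptor that dampens receptor signalling, had 107 and 112 CPM at day 2, against 45.8 and 43.4 CPM in untreated cells (1.30, SE 0.08). Med21, a subunit of the Mediator complex, had 56.9 and 54.9 CPM at day 2, against 23.8 and 23.5 CPM in untreated cells (1.24, SE 0.08). In all 3 the gap between the groups was many times the gap between libraries of a group. The choice by small p favours such genes. Daglb, which makes an endocannabinoid from diacylglycerol, rose by 1.08 on the log2 scale, the actin-depolymerising factor gene Dstn by 1.04, the interleukin 13 receptor chain gene Il13ra1 by 1.26 and Coro1a, an actin regulator of leukocytes, by 1.12.

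With all libraries and TMM scaling, the calls among C-type lectins and inhibitory receptors of myeloid cells were all rises. Under scaling by total counts 3 C-type lectin genes were called up and 1 down. The lowest log2 fold change among the lectins with TMM scaling was -1.19. Of 14 C-type lectin genes tested 3 rose and none fell (median log2 fold change 0.44), and without day 2 replicate 1 the count was 4. They were Clec12a, Clec5a and Clec4a2. Clec5a, which signals through the adaptor Tyrobp, had 32.2 and 40.8 CPM at day 2, against 13.2 and 13.4 CPM in untreated cells (log2 fold change 1.46). Clec4a2, an inhibitory lectin, had 8.30 and 9.96 CPM at day 2, against 2.81 and 3.94 CPM in untreated cells (1.44). Reads of these close lectin copies may be shared between genes. Clec4n, a receptor for fungal sugars, had 1 and 6 counts at day 2 and 0 counts in untreated cells, at least 2.79-fold higher against a floor of 3 counts over the untreated group, and was not called. Of 15 inhibitory receptors and phosphatases 7 rose and none fell (median 0.60), also 7 without day 2 replicate 1. Cd300a, an inhibitory receptor for phospholipids, had 27.0 and 29.8 CPM at day 2, against 13.2 and 12.5 CPM in untreated cells (1.15). Pilra and Lair1, receptors with inhibitory motifs, rose by 0.96 and 0.67, and Ptpn6, the phosphatase that such motifs recruit, by 0.42. Ptpn6 did not pass under scaling by total counts (0.25) or in a fit of only the 4 libraries compared (edgeR adjusted p = 0.0513). The leukocyte phosphatase gene Ptprc (0.72) lost its call without untreated replicate 2 (0.69) and without day 2 replicate 2 (0.49).

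**Figure D4:**
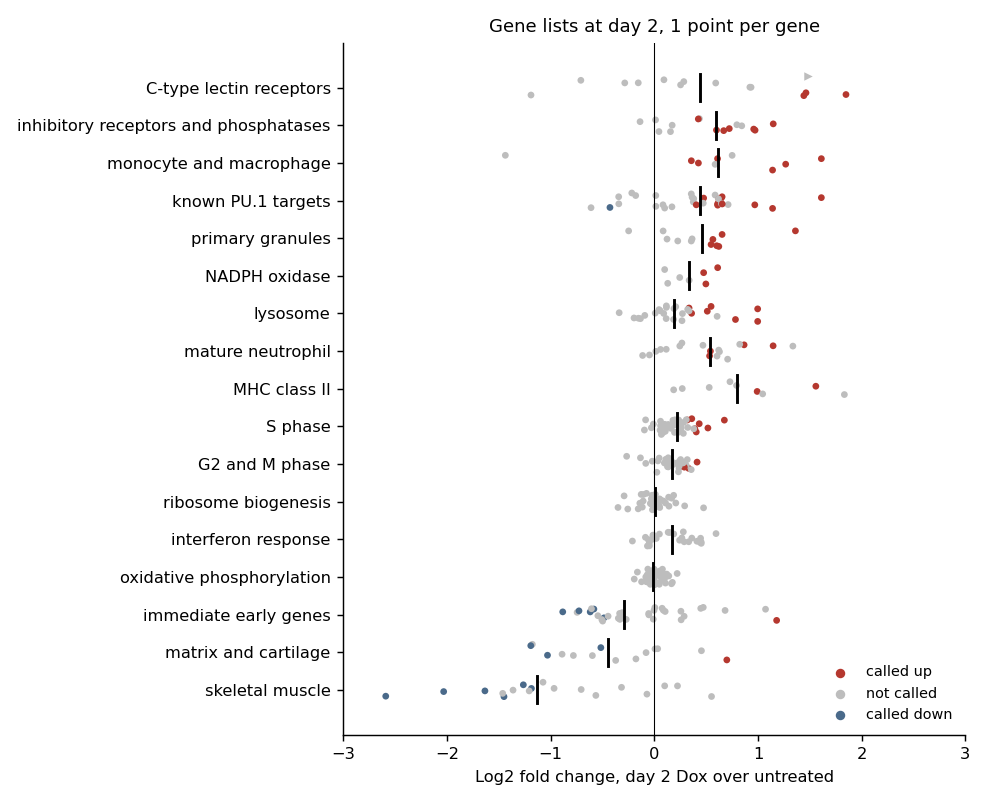
Log2 fold change of day 2 over untreated for every tested member of 17 gene lists, with black bars at the list medians. The arrowhead is the lower bound for Clec4n, which had 0 counts in untreated cells. Skeletal muscle genes lie mostly left of 0 (median -1.13), and ribosome biogenesis and oxidative phosphorylation genes lie around it.

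Known PU.1 targets rose in part. Of 32 tested 12 rose and 1, Cebpa, fell (median log2 fold change 0.44), with 11 up and 2 down without day 2 replicate 1. Of the 12 risers 8 held in every leave-one-out fit, namely Csf1r, Csf2ra, Cybb, Lyz1, Lyz2, Fes, Tyrobp and Dok3. Tyrobp, the signalling chain of many activating receptors, had 317 and 356 CPM at day 2, against 185 and 159 CPM in untreated cells (0.97, SE 0.10, edgeR adjusted p = 0.000349). Dok3, an adaptor that restrains signalling, had 88.4 and 84.5 CPM at day 2, against 56.3 and 53.5 CPM in untreated cells (0.66). Csf2ra, a receptor chain for granulocyte-macrophage colony-stimulating factor, had 92.5 and 110 CPM at day 2, against 60.8 and 69.3 CPM in untreated cells (0.64). These groups did not overlap, which held for 514 of all 516 rising genes. Csf3r, the receptor for granulocyte colony-stimulating factor, was level by contrast, with 66.2 and 69.6 CPM at day 2 and 67.0 and 67.5 CPM in untreated cells (edgeR adjusted p = 0.932). Fcer1g, the shared chain of Fc receptors, had 252 and 264 CPM at day 2 and 260 and 227 CPM in untreated cells (edgeR adjusted p = 0.596). Cd68, a lysosomal membrane protein of macrophages, had 40.0 and 76.2 CPM at day 2, against 28.9 and 24.3 CPM in untreated cells (1.14, or 1.02 and not called without untreated replicate 2). Itgam, the CD11b integrin chain, had 42.3 and 49.3 CPM at day 2, against 30.9 and 28.8 CPM in untreated cells (0.62, edgeR adjusted p = 0.0202), and lost its call without untreated replicate 2 (0.57) or day 2 replicate 2 (0.51). Under scaling by total counts 5 of the targets rose and 3 fell, with Csf2ra (0.47), Cybb (0.43), Fes (0.43), Lyz2 (0.44) and Itgam (0.45) among those not passing. Reads of the near-identical Lyz1 and Lyz2 may be split between them.

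The phagocyte oxidase and the granules followed. Of 7 NADPH oxidase genes 3 rose, both membrane subunits (Cybb and Cyba) and the cytosolic Ncf1, and none fell (median log2 fold change 0.34), with 3 up without day 2 replicate 1. Cybb had 1031 and 1058 CPM at day 2, against 755 and 613 CPM in untreated cells (0.61, edgeR adjusted p = 0.00827). Cyba (0.50) was not called without untreated replicate 2 (0.34), nor Ncf1 (0.48) without untreated replicate 2 (0.35) or day 2 replicate 2 (0.47), and none of the 3 passed under scaling by total counts (0.43, 0.32 and 0.30). Of 12 primary granule genes 6 rose and none fell (median 0.46), and all 6 held in every leave-one-out fit. In a fit of only the 4 libraries compared, Prtn3 (edgeR adjusted p = 0.0695), Lyz2 (0.0506) and the oxidase gene Cybb (0.0505) did not pass. The 6 were Prss57, Prtn3, Ms4a3, Ctsc, Lyz1 and Lyz2. Prtn3, proteinase 3, had 3083 and 2742 CPM at day 2, against 2077 and 1859 CPM in untreated cells (0.57). Ms4a3, a marker of granulocyte and monocyte progenitors, had 618 and 561 CPM at day 2, against 396 and 381 CPM in untreated cells (0.60). The related proteases differed, since Ctsg, cathepsin G, had 4455 and 4354 CPM at day 2 and 5419 and 5038 CPM in untreated cells (log2 fold change -0.25, edgeR adjusted p = 0.176). Only Prss57 and Lyz1 of the 6 passed under scaling by total counts, where Prtn3 was at 0.38, Ms4a3 at 0.42 and Ctsc at 0.37.

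Genes of later granules and of mature neutrophils were highest in day 2 replicate 1. Of 18 secondary and tertiary granule genes 4 rose and none fell (median log2 fold change 0.23, or 0.09 without day 2 replicate 1), and of 18 mature neutrophil genes 4 rose and none fell (median 0.54, or 0.08 without it). Camp, an antimicrobial peptide of secondary granules, had 2040 and 1132 CPM at day 2, against 905 and 655 CPM in untreated cells. Ngp, a granule protein, had 2176 and 1208 CPM at day 2, against 1142 and 732 CPM in untreated cells. S100a8, a calcium-binding protein of neutrophils, had 2100 and 1480 CPM at day 2, against 1318 and 874 CPM in untreated cells. In all 3 day 2 replicate 1 was the highest library, and day 2 replicate 2 lay nearer to untreated replicate 1. Of the 3 only Camp was called (1.02), and it was not called without untreated replicate 2 (0.81), day 2 replicate 1 (0.54), or either day 6 library (1.03 each). The 9 neutrophil markers summed to 7113 and 4282 CPM at day 2, against 3936 and 2637 CPM in untreated cells. Pglyrp1, a peptidoglycan-binding protein of granules, did rise in every fit, with 82.9 and 59.9 CPM at day 2, against 34.6 and 26.7 CPM in untreated cells (1.21), as did Trem3 (0.87).

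Among lysosomal genes 7 of 27 rose and none fell (median log2 fold change 0.19, or 0.24 without day 2 replicate 1). Under scaling by total counts the lysosomal median was 0.02, against -0.17 for all genes. The cysteine protease gene Ctsh had 469 and 514 CPM at day 2, against 267 and 226 CPM in untreated cells (0.997, SE 0.10, edgeR adjusted p = 0.000305), and Ctsz rose by 0.78. Lgmn, asparaginyl endopeptidase, had 19.4 and 31.9 CPM at day 2, against 13.1 and 12.9 CPM in untreated cells (0.997), and was not called without untreated replicate 2 (0.99) or day 2 replicate 2 (0.58). Of 9 monocyte and macrophage markers 6 rose and none fell (median 0.61), with 5 up without day 2 replicate 1 and 2 up without untreated replicate 2. Adgre1, the F4/80 receptor, had 244 and 249 CPM at day 2, against 178 and 145 CPM in untreated cells (0.61, or 0.43 and not called under scaling by total counts). In bulk RNA a rise of such markers cannot be told apart from a larger share of cells that carry them. Of 9 chemokine receptors 3 rose and none fell (median 0.86). Ccr1, a receptor for inflammatory chemokines, had 16.7 and 19.5 CPM at day 2, against 9.62 and 10.4 CPM in untreated cells (0.86). Ccr2, which brings monocytes out of the marrow, had 70.9 and 143 CPM at day 2, against 52.5 and 36.7 CPM in untreated cells (1.27), and lost its call without untreated replicate 2 (1.03) or day 2 replicate 2 (0.67).

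Calls among genes of sensing and antigen presentation stand beside 4.18% up and 1.95% down over all genes tested. Of 21 pattern recognition genes 2 rose and none fell (median log2 fold change 0.24). Cd180, a regulator of Toll-like receptor signalling, had 64.5 and 79.4 CPM at day 2, against 44.8 and 35.97 CPM in untreated cells (0.84). Tlr9, the receptor for bacterial DNA, had 9.46 and 14.3 CPM at day 2, against 6.05 and 5.45 CPM in untreated cells (1.07), and was not called without untreated replicate 2 (0.998) or day 2 replicate 2 (0.72). Of 9 MHC class II genes 2 rose, Cd74 and the peptide exchange factor gene H2-DMa, both at low levels, and the H2-DMa call (0.99) held in few fits: it was lost without untreated replicate 1 (1.06), untreated replicate 2 (0.93) or day 2 replicate 2 (0.69), and without either day 6 library or day 4 replicate 2 (0.99 each). The list median of 0.79 was 0.29 without day 2 replicate 1. That library also had the most B lineage RNA, and whether this bore on the class II values was not tested. Of 20 class I presentation genes 1 rose and 2 fell (median 0.06), and none of these 3 calls held in every leave-one-out fit. Of 26 interferon response genes none was called by edgeR, DESeq2 or limma (2 at an unadjusted edgeR p under 0.05, median 0.17).

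To see whether a PU.1-type sequence marks these promoters, RefSeq promoters (GRCm38.p6) were searched for the letters GAGGAAGT on both strands in the 250 bases before the gene start. The letters were found in 27 of 400 rising genes with a promoter in the table (6.75%), in 8 of 189 falling genes (4.23%) and in 306 of all 9555 tested genes (3.20%). None of the 12 leading or most certain rising genes and none of the 12 such falling genes with a promoter held them. These shares are a description of the windows and no test of binding. The windows of 5 of these 27 rising genes are shown. They are not the 5 of smallest p, as BC035044, Rgs19, Cyb561d2 and Samsn1 had smaller p than Ctsc and Prtn3. Sequences are written 5′ to 3′ on the gene's strand with the motif in capitals. It reads GAGGAAGT where it lies on the gene's strand and ACTTCCTC where it lies on the other.
Gapt (chr13:110357231-110357330, minus strand): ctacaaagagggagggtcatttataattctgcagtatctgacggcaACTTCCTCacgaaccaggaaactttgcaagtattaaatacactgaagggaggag
Crlf3 (chr11:80081123-80081222, minus strand): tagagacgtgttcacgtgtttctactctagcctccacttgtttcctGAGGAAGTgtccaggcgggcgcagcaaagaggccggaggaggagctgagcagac
Spp1 (chr5:104434952-104435051, plus strand): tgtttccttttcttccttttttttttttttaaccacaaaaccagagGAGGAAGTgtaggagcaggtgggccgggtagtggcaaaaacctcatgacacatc
Ctsc (chr7:88277888-88277987, plus strand): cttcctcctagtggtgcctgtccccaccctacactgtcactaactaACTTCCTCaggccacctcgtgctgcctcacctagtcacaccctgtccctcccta
Prtn3 (chr10:79879526-79879625, plus strand): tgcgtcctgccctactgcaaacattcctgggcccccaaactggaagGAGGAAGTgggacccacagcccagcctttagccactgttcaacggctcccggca

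The motif began 112 bases before the start of Gapt, 185 before Crlf3, 113 before Spp1, 151 before Ctsc and 95 before Prtn3. Gapt, an adaptor of B and myeloid cells, had 182 and 216 CPM at day 2, against 102 and 84.2 CPM in untreated cells (log2 fold change 1.09, edgeR adjusted p = 0.000305). Crlf3, a cytokine receptor-like factor, had 52.2 and 47.7 CPM at day 2, against 27.1 and 30.4 CPM in untreated cells (0.79). Spp1, osteopontin, had 93.4 and 117 CPM at day 2, against 57.9 and 58.2 CPM in untreated cells (0.86). The groups did not overlap in any of the 3, as in 514 of all 516 rising genes. Ctsc, the protease that activates granule proteases, had 294 and 303 CPM at day 2, against 218 and 190 CPM in untreated cells (0.55), and with Prtn3 (0.57) failed under scaling by total counts (0.37 and 0.38). Gapt had a mean of 494 CPM at day 4 and 425 CPM at day 6, whereas Spp1 had 57.9 CPM at day 4 and 37.7 CPM at day 6.

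Of 32 transcription factors of the myeloid lineage 3 rose and 4 fell, and 25 were not called (median log2 fold change -0.06). Over all genes tested 4.18% rose and 1.95% fell. Klf4, a monocyte factor that also counts as an immediate early gene, had 30.4 and 43.4 CPM at day 2, against 15.5 and 17.4 CPM in untreated cells (1.18, SE 0.15, edgeR adjusted p = 0.00142). Ikzf1, the lymphoid and myeloid factor Ikaros, had 349 and 345 CPM at day 2, against 228 and 200 CPM in untreated cells (0.70). Cebpa, a factor of granulocyte and monocyte progenitors, had 317 and 293 CPM at day 2, against 439 and 382 CPM in untreated cells (-0.43, or -0.37 and not called without day 2 replicate 2). Irf8, a partner of PU.1, overlapped between groups, with 1147 and 1309 CPM at day 2 and 1597 and 1259 CPM in untreated cells. Of 34 immediate early genes, which respond to growth signals within minutes, 1 rose (Klf4) and 5 fell (Egr1, Fosl2, Junb, Ier2 and Ier3), with a median of -0.29. Without untreated replicate 2 the median was 0.08, with 1 up and 3 down, and without day 2 replicate 1 it was -0.08, with 1 up and 4 down. Junb, an AP-1 subunit, had 71.5 and 84.7 CPM at day 2, against 123 and 136 CPM in untreated cells (-0.73), and Ier3 59.6 and 71.4 CPM at day 2, against 102 and 99.7 CPM in untreated cells (-0.62). Egr1, a zinc finger factor downstream of growth signals, had 23.5 and 35.0 CPM at day 2, against 51.6 and 57.3 CPM in untreated cells (-0.88), and was not called without untreated replicate 2 (-0.80) or day 2 replicate 1 (-0.63). Fosl2 (-0.49) lost its call when day 2 replicate 2 was left out (-0.46), and Ier2 (-0.58) when that library (-0.59) or untreated replicate 2 (-0.36) was. The AP-1 gene Jun had 108 and 110 CPM at day 2 and 99.4 and 233 CPM in untreated cells, so untreated replicate 2 alone was high.

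Of 18 stem and progenitor genes 1 rose (Ly6a) and 1 fell (Adgrg1), with a median log2 fold change of 0.04. The shares over all genes tested were 4.18% up and 1.95% down. The Ly6a call (0.53) was lost with untreated replicate 2 (0.49), day 2 replicate 1 (0.54) or day 2 replicate 2 (0.53) left out. Adgrg1 (gene 14766, chr8:94974756-95014208), an adhesion receptor of blood stem cells and myeloid leukaemias, had the largest fall among the called genes of average log2 CPM of at least 3. It had 6.46 and 4.67 CPM at day 2, against 43.8 and 39.6 CPM in untreated cells (-2.92, SE 0.17, edgeR adjusted p = 1.38e-05). Both day 2 libraries were more than 6-fold below both untreated libraries, and the change ranged from -3.15 to -2.69 over the leave-one-out fits. Kit, the stem cell factor receptor, had 114 and 106 CPM at day 2 and 132 and 125 CPM in untreated cells (-0.23, edgeR adjusted p = 0.128). Myb, a factor that sustains progenitors, had 481 and 449 CPM at day 2 and 508 and 584 CPM in untreated cells (-0.23, edgeR adjusted p = 0.155). Myb was called without untreated replicate 1 (-0.33). Rarg, a retinoic acid receptor, fell with 114 and 114 CPM at day 2, against 194 and 191 CPM in untreated cells (-0.76, SE 0.07).

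Genes of tissues other than blood, which this leukaemia expressed before treatment, fell as well. Of 18 skeletal muscle genes 6 fell and none rose (median log2 fold change -1.13), with 4 down without day 2 replicate 1 and 3 down without untreated replicate 2. Myog (gene 17928, chr1:134290004-134292548), the transcription factor of muscle differentiation, had 18.7 and 30.2 CPM at day 2, against 61.3 and 73.6 CPM in untreated cells (-1.45, SE 0.18, edgeR adjusted p = 0.00128). Mylpf, a myosin light chain of fast muscle, had 15.8 and 24.6 CPM at day 2, against 40.6 and 52.2 CPM in untreated cells (-1.19). Tnnt2, cardiac troponin T, had 8 and 13 counts at day 2, against 70 and 82 counts in untreated cells (-2.59, edgeR adjusted p = 0.00342). In each of these the groups were well apart, and day 2 replicate 1 was the lower of the day 2 pair. Tpm2, a tropomyosin, fell too (-1.26), though not without untreated replicate 2 (-1.03). Of 14 matrix and cartilage genes 3 fell and 1 rose (median -0.44), with 2 down without day 2 replicate 1. Cnmd, an inhibitor of vessel growth in cartilage, had 15.7 and 10.9 CPM at day 2, against 30.3 and 29.8 CPM in untreated cells (-1.19). Col18a1, a basement membrane collagen, had 9.46 and 8.89 CPM at day 2, against 18.5 and 19.0 CPM in untreated cells (-1.03). The basement membrane glycoprotein gene Nid2 went up, with 56.9 and 58.8 CPM at day 2, against 35.5 and 35.7 CPM in untreated cells (0.70).

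Single genes of other kinds fell too. Slc29a3 (gene 71279, chr10:60712072-60752849), a lysosomal nucleoside transporter, had 31.4 and 37.7 CPM at day 2, against 110 and 109 CPM in untreated cells (log2 fold change -1.66, SE 0.10, edgeR adjusted p = 1.47e-05). Txnip, an inhibitor of thioredoxin and glucose uptake, had 89.6 and 94.7 CPM at day 2, against 164.1 and 153 CPM in untreated cells (-0.78). Heph, a copper-dependent iron oxidase, had 98.4 and 87.2 CPM at day 2, against 175 and 180 CPM in untreated cells (-0.94). In all 3 the spread within each pair was small beside the gap, which their choice by small p favours. Vegfa, vascular endothelial growth factor A, had 84.4 and 78.5 CPM at day 2, against 129 and 165.1 CPM in untreated cells (-0.85), and Pgf, placental growth factor, 1.85 and 1.795 CPM at day 2, against 6.30 and 5.79 CPM in untreated cells (-1.73). Ddit4, a brake on the growth kinase mTORC1, had 22.1 and 25.04 CPM at day 2, against 48.4 and 42.5 CPM in untreated cells (-0.94), and the forkhead factor gene Foxo1 53.3 and 47.5 CPM at day 2, against 78.2 and 83.1 CPM in untreated cells (-0.68). Vegfa, Pgf and Foxo1 were chosen after their values were seen. Of the leading falling genes Gpc1, Mfsd7a and Chst15 lost their calls without untreated replicate 2 (-0.89, -0.80 and -1.07), Gpc1 also without day 2 replicate 1 (-0.73) or either day 6 library (-1.04), and Chst15 without any 1 of the 4 libraries or either day 6 library (-1.09 to -0.82).

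Growth and housekeeping genes shifted by small amounts. Of 44 S phase genes 7 rose and none fell (median log2 fold change 0.22). In 31 of them both day 2 libraries lay above both untreated libraries, against 25.5% of all genes. Under scaling by total counts the S phase median was 0.04, against -0.17 for all genes. Pcna, the replication clamp, had 177 and 188 CPM at day 2, against 120 and 109 CPM in untreated cells (0.68, SE 0.08, edgeR adjusted p = 0.00101), and was the only one called in every leave-one-out fit. Of 35 G2 and M phase genes 3 rose and none fell (median 0.17, or 0.00 under scaling by total counts), none of them in every fit. Ribosome biogenesis (0 of 35 called by edgeR, 3 at an unadjusted p under 0.05, median 0.00), nuclear oxidative phosphorylation (0 of 43 called by edgeR, 2 at an unadjusted p under 0.05, median -0.01) and cytosolic ribosomal protein genes (3 of 78 up, median 0.03) were level, and counts of ribosomal protein genes are uncertain because of their many pseudogene copies. DESeq2 and limma called none of the ribosome biogenesis or oxidative phosphorylation genes either. Without untreated replicate 1, 1 ribosome biogenesis gene was called up and 2 down, and 2 oxidative phosphorylation genes were called up. Of 25 cholesterol synthesis genes only Fdps, which makes farnesyl diphosphate, rose, with 39.3 and 34.5 CPM at day 2, against 16.0 and 16.2 CPM in untreated cells (1.19, SE 0.10). Of 20 purine and pyrimidine transport and salvage genes 6 rose and Slc29a3 fell, and none of the 6 rises held in every leave-one-out fit.

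Stress and death lists gave small numbers of calls, beside 4.18% up and 1.95% down over all genes tested. Of 20 p53 targets 1 rose (Pmaip1) and 1 fell (Ddit4), with a median log2 fold change of -0.05 in these p53-deficient cells. Pmaip1, the BH3-only protein NOXA, had 11.1 and 14.1 CPM at day 2, against 5.19 and 5.37 CPM in untreated cells (1.26, edgeR adjusted p = 0.00133). Bid, another BH3-only protein, had 111 and 129 CPM at day 2, against 69.6 and 73.7 CPM in untreated cells (0.75). With Pmaip1 it made 2 of 15 BCL2 family genes up and none down. The integrated stress response list also gave 1 up (Pycr1, an enzyme of proline synthesis, 1.30) and 1 down (Ddit4) of 22. Of 10 glucocorticoid-responsive genes 2 fell and none rose (median -0.38). In 8 of them both day 2 libraries lay below both untreated libraries, against 23.2% of all genes. Ddit4 held in every fit, and the kinase gene Sgk1 (-0.66) failed without untreated replicate 2 (-0.46), day 2 replicate 1 (-0.53) or either day 6 library (-0.66 each).

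Set in the time course, the day 2 values took several courses. Clec12a had means of 23.5 CPM in untreated cells, 84.6 CPM at day 2, 446 CPM at day 4 and 725 CPM at day 6, and Csf1r 35.7, 109, 918 and 979 CPM. Myog had 67.5 CPM in untreated cells, 24.4 CPM at day 2, 0.708 CPM at day 4 and 0.218 CPM at day 6. These genes went on in the direction taken at day 2, whereas others turned. Slc29a3 had 109.6 CPM in untreated cells, 34.5 CPM at day 2, 84.8 CPM at day 4 and 89.0 CPM at day 6. Txnip had means of 158 CPM in untreated cells, 92.1 CPM at day 2, 172.1 CPM at day 4 and 284 CPM at day 6. Its day 4 libraries (152 and 192 CPM) overlapped the untreated libraries (164.1 and 153 CPM). For Junb the means were 130, 78.1, 127 and 207 CPM. Adgrg1 was already low at day 2, with 2.76 CPM at day 4 and 7.77 CPM at day 6. Later days are shown for their levels only and were not compared with day 2 by a test.

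**Figure D5:**
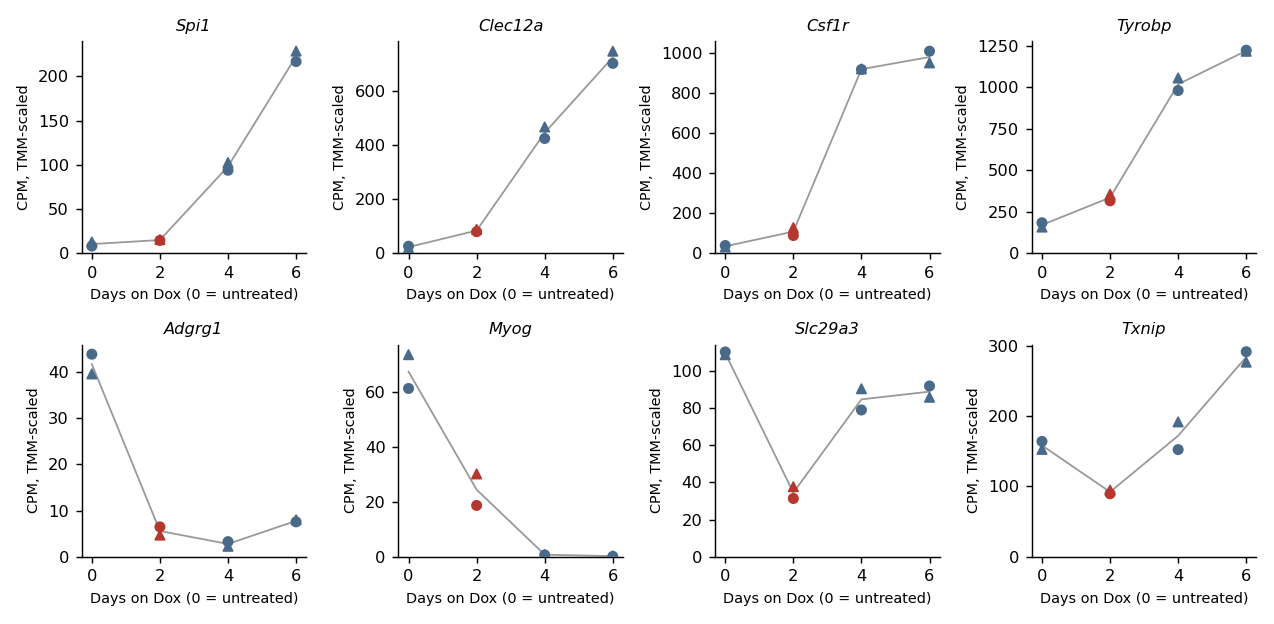
TMM-scaled CPM of 8 genes by days on Dox, with 0 for untreated, 2 symbols per day for the 2 libraries, day 2 in red and a line through the means. Spi1 is at 14.8 and 15.6 CPM at day 2 while Clec12a, Csf1r and Tyrobp are already above untreated. Slc29a3 and Txnip are lowest at day 2 and higher again at days 4 and 6.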

How the data were processed

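RNA from sorted GFP-positive bone marrow cells was sequenced in 8 libraries, of which the 2 of day 2 and the 2 of untreated mice are compared. Per the file headers, the authors deposited whole-number counts by Entrez gene ID, beside gene lengths that were not used. Per the submitters' processing notes, the build was mm10 and the tools were featureCounts, CASAVA 1.8.2, limma 3.22.0 and edgeR 3.8.2; no settings are known. No source used here gives strandedness, so reads of overlapping genes cannot be separated.

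Counts were tested with the edgeR 4.0.16 quasi-likelihood test in R 4.3.3 with TMM scaling and edgeR's default low-count filter, which left 12330 genes and removed 500 with 0.0267% of counts. All 8 libraries (9262047 to 11213292 counts) shared 1 group-means fit, with 4 residual degrees of freedom. Levels are TMM-scaled CPM. The procedure was tested on simulated data. Alternatives were other scalings and filters, DESeq2 1.42.0, limma 3.58.1, a replicate block and leaving out each library. Intervals of counting error are not given, since replicate scatter sets the error here.

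Named genes were the 12 rising and 12 falling genes of largest change among called, well-expressed genes without overlap, the 6 per direction of smallest p among calls held in all 8 leave-one-out fits, up to 3 called members per list and direction, and the 8 genes per direction that differed most between the day 2 libraries. Others are named as such, as members of a list that did not pass, or for their promoter. The comparison, members and lists were chosen with earlier results of these data known. Promoter sequences are from RefSeq (GRCm38.p6).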

Additional observations from a re-analysis of the deposited data

How the results depend on the processing

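The 756 genes called (516 up, 240 down) became 755 (525 up, 230 down) with RLE scaling, 704 (425, 279) with upper quartile scaling and 828 (170, 658) with total count scaling. They became 751 (526, 225) with no filter and 787 (532, 255) with at least 10 counts in every library. DESeq2 called 703 (535 up), limma voom 696 (466, 230), voom with sample quality weights 459 (316, 143) and a test against a 1.5-fold change 24 (20, 4). A fit of only the 4 libraries called 232 (175, 57), and 786 (534, 252) were called after removal of non-polyadenylated RNA, histone, Lars2 and no-symbol genes. Leaving out 1 library gave 325 to 1325 calls, 241 to 738 up and 84 to 587 down; a group with 1 library left is assumed to vary like the others. The log2 fold change of Spi1 was 0.24 to 0.87 over these fits, passing only without untreated replicate 2, and also passed by DESeq2 (0.52). Trp53, not called, ranged from -0.0572 to 0.0237, with a positive sign when untreated replicate 1 (0.0121) or day 2 replicate 1 (0.0237) was left out. The cause of these shifts was not tested.

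With the replicate block 612 genes were called (416 up, 196 down), and 94 of the 102 named genes with a call kept it. The deviations of same-numbered libraries correlated at 0.209 over 2 pairs, so the numbers are not shown to pair the libraries. Of these 102 genes 72 kept their call with total count scaling, 74 with quality weights, 61 in the fit of only the 4 libraries and 17 against a 1.5-fold change. When untreated replicate 1 or 2 was left out 95 and 58 kept it, and when day 2 replicate 1 or 2 was left out 79 and 72. With 2 libraries a group, small changes of genes with few counts may go uncalled.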
